A study of Mus musculus with 8 samples.

Results

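A set of smooth muscle barcodes marked by Rgs5, Prrx2, Sfrp2, Frzb, Lamc3 and Mia was described in the wall of the ascending aorta, from healthy young mice without a mutation. A barcode is a droplet tag that stands for about 1 cell, and a UMI is a tag that stands for 1 captured RNA molecule. Membership required at least 2 of the 6 genes and at least 4 UMIs of them in all, within a gate of 6804 smooth muscle barcodes. The gate kept barcodes with at least 500 genes, at most 20% mitochondrial UMIs, fewer than 10 haemoglobin UMIs, at least 1% of UMIs from Acta2, Tagln and Myh11 together, at most 1 UMI of Pecam1, Cdh5 and Ptprc together, and 0 UMIs of the pericyte genes Higd1b and Cox4i2. The rule found 1687 members, 24.8% of the gate (exact binomial 95% interval 23.8 to 25.8%), and left 5117 other gate barcodes. In all, 9939 barcodes of the deposited matrix passed the filter on genes, mitochondrial and haemoglobin UMIs.

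The tissue came from 3 wild-type animals at 11, 12 and 13 weeks of age, with no treatment or allele named, and all groups share that genotype. It was digested with collagenase and elastase for 60 min at 37 °C, cells were tagged with 1 of 3 hashtag antibodies, and all were sequenced as 1 pooled matrix of 3′ tags. The members and the barcodes they are compared with thus come from the same animals, and no age had a replicate animal. A hashtag is an antibody tag that marks the animal a cell came from. A single hashtag was assigned to 354 members (21.0%), 132, 95 and 127 of them for hashtags 1, 2 and 3, while 1122 members had none and 211 had several. Median hashtag UMIs of members (90, 280 and 285) were close to those of the other gate barcodes (89, 279 and 282), and a stricter caller assigned 70 members. The p-values below measure the spread between 3 such hashtag samples, and part of that spread may be that of random draws from 1 pool. Members formed 24.8%, 23.4% and 25.6% of the gate in hashtags 1, 2 and 3, with intervals of 21.2 to 28.7%, 19.4 to 27.8% and 21.8 to 29.7% that overlapped.

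Smooth muscle cells of the aortic wall contract and also build the elastic lamellae and collagen between them. Those of the ascending aorta arise from the cardiac neural crest and the second heart field, and they keep parts of these developmental programmes in the adult. Rgs5 shortens signalling through G-protein-coupled receptors and is widely used as a mark of pericytes and of some arterial muscle. Sfrp2 and Frzb encode secreted proteins that bind Wnt ligands, Prrx2 a homeobox transcription factor of embryonic mesenchyme, Lamc3 a laminin gamma chain of basement membranes, and Mia a small secreted protein first known from cartilage and melanoma.

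The smooth muscle label was checked against its defining genes. Transcripts of Acta2, Tagln and Myh11, which the gate itself used, made up a median of 2.59% of member UMIs against 3.03% in the other gate barcodes and 0.152% in barcodes with fibroblast markers. The contractile list of 30 genes summed to between 61560 and 63644 CPM (the usual per-total scaling of counts) in members over the 3 hashtags, between 67699 and 68315 CPM in the other gate barcodes, and between 6860 and 9028 CPM in fibroblast-marker barcodes. The list holds the 3 genes the gate used, so the distance from fibroblast-marker barcodes was set in part by the rule. The sums of members lay below those of the other gate barcodes, without overlap. Members were the deeper class, with a median of 7788 UMIs and 2638 genes against 7067 UMIs and 2416 genes, and depth raises the chance of passing a count threshold. Barcodes called with several hashtags, 211 members and 603 other gate barcodes, did not enter the tests. They were kept in the levels over all barcodes and in the clusters. No doublet caller was run on the gene counts, and other doublets were not removed.

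The 6 genes that chose the members are given as a description, without a test. They came from an earlier clustering of the same barcodes, so genes that vary with them were likely to differ too. Sfrp2 was detected in 86.8% of members, Rgs5 in 73.0%, Lamc3 in 43.2%, Mia in 41.0%, Frzb in 26.9% and Prrx2 in 19.1%. In the other gate barcodes the shares were 31.0%, 17.2%, 12.7%, 13.5%, 6.18% and 1.93% in the same order. With every barcode thinned to 2000 UMIs, Rgs5 remained detectable in 52.1% of members and 8.07% of the other gate barcodes, and Prrx2 in 7.78% and 0.596%. Most members held few of the genes: 749 members (44.4%) had 2 of the 6, 575 had 3, 202 had 4, 105 had 5 and 56 had all 6. Rgs5 led the marker UMIs in 764 members and Sfrp2 in 625, and Rgs5 alone supplied 60.3% of all marker UMIs of members. Among members the levels of Rgs5 and Sfrp2 were uncorrelated (Pearson r = -0.02 over 1687 barcodes), whereas Prrx2 had r = 0.29 with Rgs5 and r = 0.28 with Frzb. These correlations are across barcodes that share 1 pool and a rule on the same genes.

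The hashtag samples gave like values for the marker genes, as CPM with TMM scaling. Rgs5 stood at 913, 974 and 1427 CPM in members of hashtags 1, 2 and 3, and at 74.7, 86.0 and 53.8 CPM in the other gate barcodes. Sfrp2 stood at 452, 468 and 518 CPM against 79.3, 68.6 and 68.7 CPM. Prrx2 was low in both classes, at 37.3, 27.4 and 29.8 CPM in members and 3.16, 2.90 and 4.22 CPM in the others. All 3 genes kept the classes apart, as the rule required. Frzb was at 34.7, 49.8 and 48.7 CPM in members, Lamc3 at 88.6, 80.9 and 51.7 CPM, and Mia at 86.0, 97.0 and 104 CPM.

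**Figure D1:**
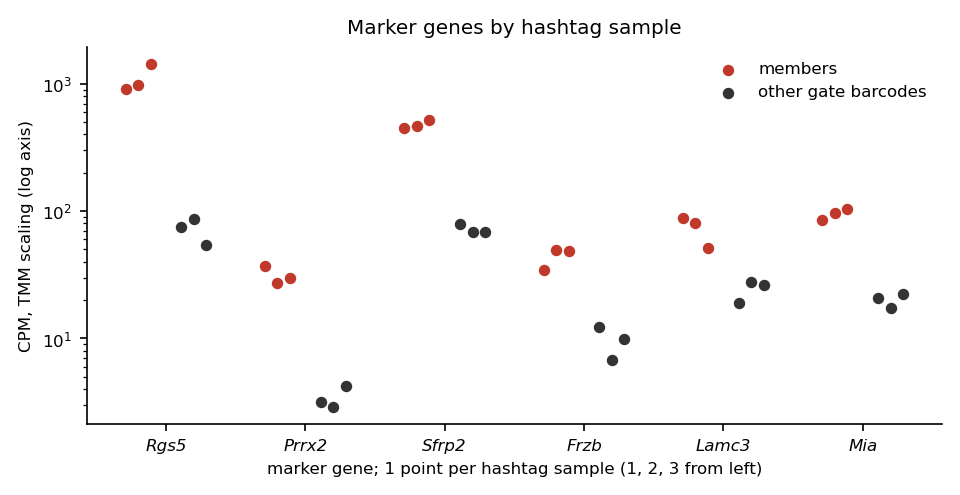
Level of each of the 6 marker genes in CPM with TMM scaling (log axis), 1 point per hashtag sample, for members (red) and other gate barcodes (dark). The genes chose the members, so the gap in their sum is set by the rule, though not that of each gene alone. The points show how far the 3 hashtag samples of a class lie from each other (Rgs5 in members from 913 to 1427 CPM).

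The promoter windows of the genes are shown because Tfap2b, a transcription factor outside the rule, had its highest level in the members richest in marker UMIs (values below), and factors of the TFAP2 family bind the palindrome GCCNNNGGC. Windows of 300 bases, from 250 before to 50 after the RefSeq start (GRCm38.p6, the assembly also called mm10), were found for Rgs5, Prrx2, Sfrp2, Frzb, Mia and Tfap2b. The motifs searched on both strands were TAATTA of homeobox factors, this palindrome, the TATA box TATAAA, the E-box CACGTG, the TCF/LEF core CTTTGAT and, by its name alone, the CArG box of serum response factor. GCCNNNGGC matched 2 times in the Prrx2 window and 1 time in the Frzb window, and 16.6% of all 32851 windows hold it. None of the other motifs matched in these 6 windows. A match here is a description of letters, not of binding. The windows below lie at chr1:169655251-169655550 on the + strand for Rgs5, chr2:30845117-30845416 on the + strand for Prrx2 and chr2:80447347-80447646 on the - strand for Frzb, each 5′ to 3′ with motif matches in capitals.
Rgs5: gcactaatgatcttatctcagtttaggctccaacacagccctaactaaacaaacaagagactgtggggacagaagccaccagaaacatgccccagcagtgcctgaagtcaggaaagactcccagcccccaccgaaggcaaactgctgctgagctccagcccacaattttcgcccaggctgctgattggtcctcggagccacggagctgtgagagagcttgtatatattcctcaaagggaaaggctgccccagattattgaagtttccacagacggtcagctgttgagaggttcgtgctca
Prrx2: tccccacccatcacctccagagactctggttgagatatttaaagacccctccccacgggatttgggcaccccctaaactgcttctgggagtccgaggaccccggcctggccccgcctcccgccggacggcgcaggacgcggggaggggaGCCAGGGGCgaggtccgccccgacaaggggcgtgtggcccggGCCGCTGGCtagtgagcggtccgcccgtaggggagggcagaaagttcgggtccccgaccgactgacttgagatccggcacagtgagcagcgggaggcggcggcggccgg
Frzb: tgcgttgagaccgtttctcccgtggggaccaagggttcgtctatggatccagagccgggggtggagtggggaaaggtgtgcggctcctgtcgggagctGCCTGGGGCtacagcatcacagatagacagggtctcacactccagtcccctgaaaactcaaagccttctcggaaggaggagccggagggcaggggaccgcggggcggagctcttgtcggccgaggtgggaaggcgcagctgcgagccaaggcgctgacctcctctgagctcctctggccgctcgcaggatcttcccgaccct

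The marker UMI count of members ranged from 4 to 381, with a median of 8. It was 4 or 5 in 528 members, 6 to 9 in 415, 10 to 19 in 363 and 20 or more in 381, the last being 5.60% of the gate. The rule's threshold lay near the level of low-quality barcodes, which failed the cell filter and had fewer than 1000 genes. These carried the 6 genes at 513 CPM, a mix that would give 3.99 marker UMIs at the members' median depth. They had medians of 1707 UMIs, 1.59% of Acta2, Tagln and Myh11 transcripts and 64 haemoglobin UMIs. Whether their mix is a background level was not tested. The other gate barcodes carried them at 234 CPM and the members at 2001 CPM, a mean of 16.1 UMIs per member. The threshold was also passed by 13.2% of fibroblast-marker barcodes, at a median depth of 4544.5 UMIs, and by 2.53% of the low-quality barcodes. Just inside it, the 285 members with 4 marker UMIs held 106 CPM of Rgs5 and 214 CPM of Sfrp2. Just outside, the 441 gate barcodes with at least 2 of the genes and 3 UMIs held 75.6 and 138 CPM. How much of the lower counts is free RNA was not tested.

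Genes outside the rule followed the marker count in different ways. Adamtsl1, a secreted relative of the ADAMTS proteases that lacks the catalytic domain, was at 1.76 CPM in gate barcodes with 0 marker UMIs, 2.65 CPM in members with 4 or 5, 5.59 CPM with 6 to 9, 17.8 CPM with 10 to 19 and 81.0 CPM with 20 or more. Tfap2b, a transcription factor of neural crest and of the ductus arteriosus, stayed between 0.482 and 1.30 CPM in members below 20 and reached 24.5 CPM above. Dlx6, a homeobox factor next to Dlx5 on chromosome 6, went from 1.45 CPM in members with 4 or 5 to 27.6 CPM in those with 20 or more. Most of the RNA of these genes thus sat in the richest members, which held 73.9% of the Adamtsl1 UMIs of all members, 66.7% of those of Dlx6 and 88.0% of those of Tfap2b. Among matrix genes the course differed. Mfap5, a microfibril protein, was at 126 CPM at 0 marker UMIs, 202 CPM in members with 4 or 5 and 518 CPM in members with 20 or more, and Smoc1, a secreted calcium-binding protein of basement membranes, at 81.7, 142 and 333 CPM. Fn1 was at 411 CPM at 0 marker UMIs, 621 CPM in members with 4 or 5, 825 CPM with 10 to 19 and 748 CPM with 20 or more, and Mgp at 9375, 14774, 14506 and 11529 CPM. Acta2, which the gate used, went the other way, from 15481 to 13653 and 11067 CPM.

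Detection in the same barcode was rare but unequal. At least 2 of Adamtsl1, Dlx5, Dlx6, Prss12 and Tfap2b were detected in 23.6% of the 381 richest members (exact interval 19.4 to 28.2%), in 6.94% of all members and in 0.195% of the other gate barcodes. These genes were chosen for this count after their levels were seen. Their levels in fibroblast-marker barcodes differed by gene. An Adamtsl1 UMI was present in 17.9% of fibroblast-marker barcodes, 10.6% of members and 1.17% of the other gate barcodes, and a Tfap2b UMI in 0.150%, 3.32% and 0.371%. At 2000 UMIs per barcode the Adamtsl1 shares were 10.1%, 4.04% and 0.497%.

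**Figure D2:**
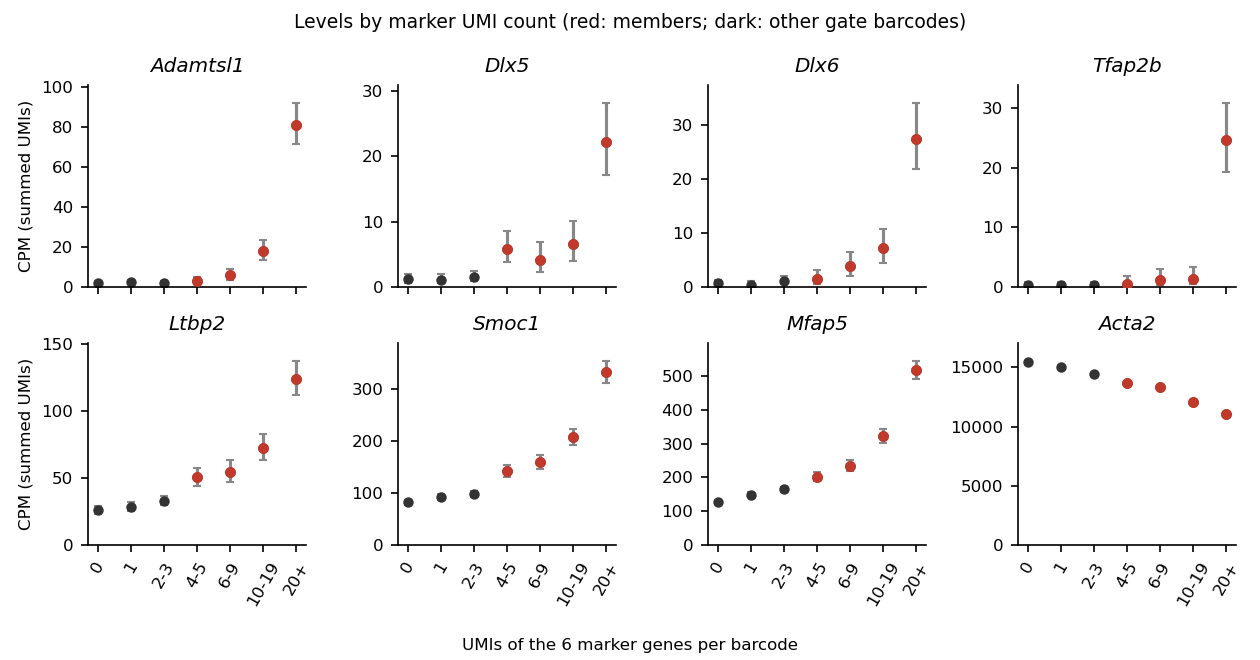
Level in CPM (summed UMIs of all barcodes of a tier) against the number of marker UMIs per barcode, for 8 genes, with exact Poisson 95% intervals that cover counting error only (for Acta2 they are smaller than the points); red points are members. Adamtsl1 goes from 2.65 to 81.0 CPM over the member tiers with a step at each, Tfap2b stays at 1.30 CPM or less in members below 20 marker UMIs, Mfap5 goes from 202 to 518 CPM, and Acta2 declines from 15481 to 11067 CPM.

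Gate barcodes were also clustered without any gene of the rule. Of 7 clusters, that of 347 barcodes led by Adamtsl1, Tshz2 and Negr1 contained 303 members (87.3%, exact interval 83.4 to 90.6%). The other clusters held between 10.4% and 28.0% members. The Adamtsl1-led cluster took in 303 of the 1687 members and 56.4% of the members with 20 or more marker UMIs. At a finer resolution the matching cluster had 427 barcodes, 83.1% of them members, and 60.9% of the richest members. The other clusters then held between 7.44% and 41.8% members, the highest being 223 of 534 barcodes (exact interval 37.5 to 46.1%). Members therefore did not lie in 1 place: 600 fell in the largest cluster, led by Rbp4 and Ccn5, 317 in that led by Vcam1 and Spp1, 273 in that led by Ighm and the early response gene Fos, 101 in that led by Tnnt2 and Des, and 73 in that led by the fibroblast genes Dcn and Clec3b. The genes that build a cluster are its definition and are not offered as results.

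**Figure D3:**
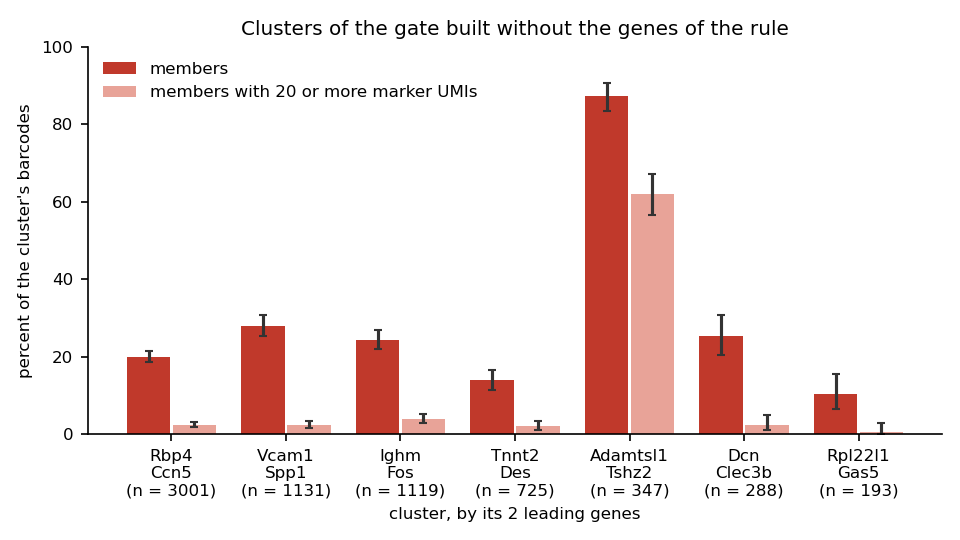
Share of members (dark red) and of members with 20 or more marker UMIs (light red) among the barcodes of each cluster built without the rule's genes, with exact binomial 95% intervals; clusters are named by their 2 leading genes and n is their barcodes. The Adamtsl1-led cluster stands at 87.3% members and the others at 10.4 to 28.0%.

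The 6 marker genes, which that clustering did not see, were all at higher levels in the Adamtsl1-led cluster than elsewhere in the gate. Rgs5 was at 4215 CPM there and 229 CPM in the other clusters, Prrx2 at 134 and 6.07 CPM, Sfrp2 at 1192 and 149 CPM, Frzb at 162 and 15.5 CPM, Lamc3 at 175 and 35.5 CPM, and Mia at 140 and 39.9 CPM. By hashtag, Rgs5 was at 4049, 2944 and 5262 CPM in the cluster, from 17, 15 and 24 barcodes, and at 206, 230 and 218 CPM outside it. The markers were chosen on an earlier clustering of these barcodes, so this is a description. Prrx2 was detected in 49.3% of the cluster's barcodes and 3.89% of the others. The 44 barcodes of the cluster that were not members had Rgs5 at 4013 CPM. Their low levels of the other marker genes follow from the rule, since a barcode rich in Rgs5 with any other marker is a member.

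**Figure D4:**
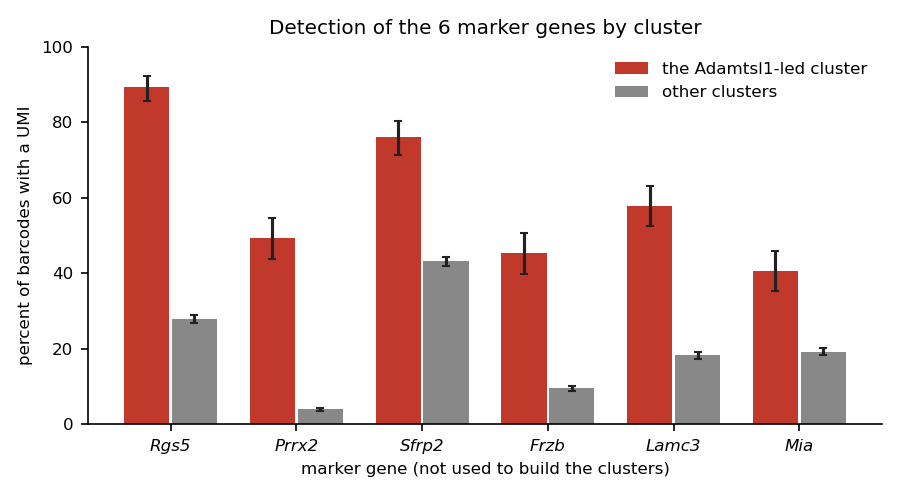
Percent of gate barcodes with at least 1 UMI of each marker gene, in the Adamtsl1-led cluster (red, 347 barcodes) and in the other clusters (grey, 6457 barcodes), with exact binomial 95% intervals. All 6 genes were detected more often in the cluster, from 89.3% against 27.9% for Rgs5 to 40.6% against 19.2% for Mia.

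The 303 members of that cluster had a lower share of Acta2, Tagln and Myh11 transcripts, genes the clustering did not use, than the other 1384 members, a median of 1.94% against 2.72%. They also had fewer UMIs, a median of 6169 against 8108. Levels of genes the clustering used are not compared between these members.

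Members were then compared with the other gate barcodes over the 3 hashtag samples by edgeR's quasi-likelihood test. The genes of the rule were left out, and 8800 others were tested. The genes higher in members included those of secreted or matrix proteins such as Adamtsl1, Ltbp2, Smoc1, Mfap5 and Fn1, of growth factors such as Vegfd, Mdk and Bdnf, the protease gene Prss12 and the homeobox gene Dlx5. Some contractile genes such as Des and Sncg, the receptor gene Gucy1a1, and the stress genes Atf3 and Fos were lower. The calls of Atf3 and Fos were lost without hashtag 3, and in hashtag 2 Atf3 was not lower. That of Atf3 was also lost without hashtag 1 (edgeR adjusted p = 0.537). Over all barcodes the stress list took like shares of UMIs in both classes (values below). At an adjusted p under 0.05, 61 genes were higher in members (0.693% of those tested) and 43 lower (0.489%), 1.18% in all, and 99 of the 104 moved the same way in all 3 hashtags. Over all genes tested, 15.2% had hashtag values that did not overlap between the classes, 9.23% had an unadjusted p under 0.05, and the median log2 fold change was -0.00054. DESeq2 called 13 and 5 genes, and without hashtag 1 edgeR called 28 and 16. With the comparison restricted to barcodes of at most 10% mitochondrial UMIs it called 15 and 8.

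Adamtsl1 stood at 18.2, 14.9 and 24.8 CPM in members of hashtags 1, 2 and 3 and at 1.75, 0 and 1.15 CPM in the other gate barcodes. The classes did not overlap, and the log2 fold change was 4.09 ± 0.44 (SE, n = 3 hashtag samples, edgeR adjusted p = 3.33e-10), from 58 and 8 UMIs. Prss12, a secreted serine protease, had 5.21, 7.46 and 7.95 CPM against 1.40, 0.483 and 0 CPM (log2 fold change 3.18 ± 0.67, adjusted p = 0.0023). Ltbp2, a microfibril-associated protein related to the TGF-beta binding proteins, was at 77.3, 79.6 and 65.6 CPM in members. The other barcodes had 32.3, 20.3 and 28.8 CPM of it (1.41 ± 0.16, adjusted p = 1.57e-09). Smoc1 was at 187, 216 and 172 CPM against 94.0, 91.9 and 82.2 CPM (1.09 ± 0.09, adjusted p = 1.23e-13). Fn1, fibronectin, was at 960, 878 and 714 CPM against 465, 463 and 422 CPM (0.92 ± 0.07, adjusted p = 1.38e-16). Each of these genes was higher in members in all 3 hashtags, with no overlap. The call of Prss12 was lost without hashtag 2 (adjusted p = 0.0575) and without hashtag 3 (adjusted p = 0.156).

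The comparison was repeated without the Adamtsl1-led cluster. Without its barcodes, an alternative chosen after seeing the data, 35 genes were higher and 25 lower, of which 32 and 20 were also called with it. Adamtsl1 then had a log2 fold change of 1.24 (adjusted p = 0.787) and Dlx5 one of 1.96 (adjusted p = 0.112), and Tshz2, Prss12 and Chrdl1 also lost their calls. Adamtsl1 and Tshz2 lead that cluster, so leaving it out had to lower them. Tshz2 lost its call without hashtag 3 as well (0.71, adjusted p = 0.316). Without the cluster Fn1, Smoc1, Mfap5, Ltbp2, Fbln5, Des and Sncg kept theirs. With at least 3% of Acta2, Tagln and Myh11 transcripts in both classes, which left fewer barcodes, Smoc1, Mfap5, Fbln5 and Des lost their calls. So did Chrdl1 and Tshz2, and Adamtsl1 was at a log2 fold change of -0.017. Among members with 4 or 5 marker UMIs alone, also chosen after seeing the data, 6 genes were higher and 15 lower. Adamtsl1 was then at a log2 fold change of -0.01, and Mfap5, Ltbp2, Fbln5 and Sncg lost their calls. Fibroblast-marker barcodes held Adamtsl1 at 51.5 ± 7.5 CPM, Mfap5 at 1557 ± 137 CPM and Tshz2 at 331 ± 38 CPM (SD, n = 3), all above the means of all members. The fibroblast list as a whole summed to 2944 to 3502 CPM in members and 2994 to 3241 CPM in the other gate barcodes.

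**Figure D5:**
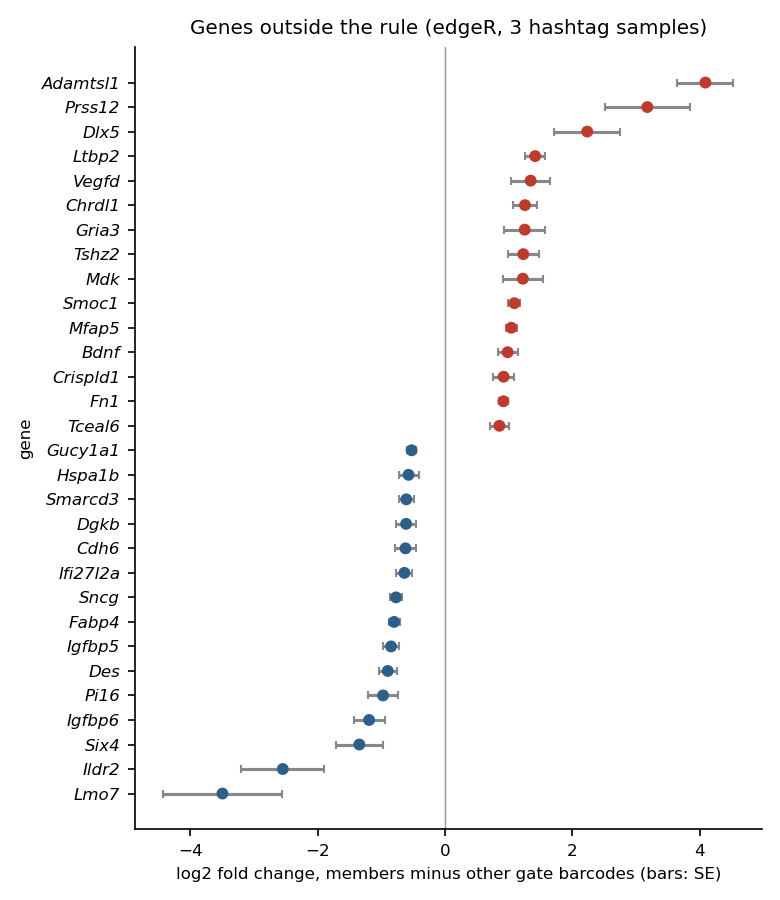
Log2 fold change of members over other gate barcodes (edgeR, 3 hashtag samples, bars are SE). Shown are the 15 largest positive (red) and 15 largest negative (blue) values among called genes that passed the naming filters. These required the same direction in 3 of 3 hashtags and at least 10 UMIs in the higher class. Gm, Rik, ribosomal protein and mitochondrial names were left out. Spp1, called at 1.94, did not pass, as members were not higher in hashtag 3. Of the genes shown, Adamtsl1 has the highest value at 4.09 and Lmo7, from 1 UMI in members, the lowest at -3.49.

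The elastic fibre and microfibril list had 8 of 23 tested genes higher in members and 0 lower, and its median log2 fold change was 0.23. Over all genes tested, 0.693% were higher and 0.489% lower, the shares for every list of this comparison. Mfap5 stood at 287, 318 and 378 CPM in members and 150, 183 and 147 CPM in the other gate barcodes (1.04 ± 0.08, adjusted p = 1.05e-14). Fbln5 was at 745, 836 and 836 CPM against 539, 513 and 562 CPM (0.58 ± 0.06, adjusted p = 5.16e-10). Eln, which encodes tropoelastin, was at 1698, 1707 and 1812 CPM against 1339, 1489 and 1369 CPM (0.32 ± 0.06, adjusted p = 4.23e-04). Mfap4, Ltbp1, Ltbp2, Ltbp3 and Mgp were the other calls. Mgp, an inhibitor of calcification, was at 16531, 15148 and 10078 CPM against 10983, 11678 and 9298 CPM, with overlap between the classes. Over all barcodes Mgp was at 11312 CPM in members led by Rgs5, 16266 CPM with Sfrp2 leading and 25290 CPM with Lamc3 leading. Without hashtag 1, Mgp and Ltbp3 lost their calls (adjusted p = 0.240 and 0.333). Fbn1, the main microfibril protein, and the crosslinking enzyme Lox were not called (0.23 and 0.04, adjusted p = 0.339 and 0.967).

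Of the 13 interstitial collagens tested, Col1a1, Col1a2 and Col6a1 were higher in members and 0 were lower, with a median of 0.24. The shares over all genes tested were 0.693% higher and 0.489% lower. Col6a1 was at 150, 153 and 161 CPM against 114, 105 and 111 CPM (0.49 ± 0.09, adjusted p = 7.12e-04). Of 21 laminin and basement membrane genes, Lama2, a laminin alpha chain, and Smoc1 were higher and 0 lower. Lama2 was at 37.3, 31.1 and 26.8 CPM against 21.0, 20.3 and 14.6 CPM (0.78 ± 0.20, adjusted p = 0.0225), a call lost without any 1 of the hashtags (adjusted p = 0.093 to 0.355). Those of Col1a1 and Col1a2 were lost without hashtag 3 (adjusted p = 0.355 and 0.0557), that of Col1a1 also without hashtag 2 and that of Col1a2 without hashtag 1. The laminin chain genes Lamb2 and Lamc1 were not called, at log2 fold changes of -0.00 and -0.09. Proteoglycan and matricellular genes split, with Vcan and Spp1 higher and Aspn and Sparcl1 lower among 22 tested. Vcan, versican, was at 164, 233 and 204 CPM against 125, 122.8 and 114 CPM (0.71 ± 0.11, adjusted p = 1.04e-05). Spp1, osteopontin, was at 48.6, 17.4 and 0.993 CPM in members against 11.9, 2.90 and 1.92 CPM (1.94 ± 0.34, adjusted p = 1.12e-04). Hashtag 1 carried most of it, and in hashtag 3 members were the lower class. The calls of Aspn and Sparcl1 were lost without hashtag 1 (adjusted p = 0.534 and 0.453), and that of Aspn also without hashtag 2. None of 9 cartilage-type genes was called, Acan among them (-0.08, adjusted p = 0.968).

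Of 33 tested transcription factors of homeobox, outflow tract and mesenchymal type, Dlx5 and Osr1 were higher in members and Ebf1 lower. The shares over all genes tested were 0.693% higher and 0.489% lower. Dlx5, which acts in neural crest and skeletal development, was at 13.0, 7.46 and 5.96 CPM against 3.16, 0.967 and 1.15 CPM. Its log2 fold change was 2.23 ± 0.52 (adjusted p = 0.0079), from 27 and 14 UMIs, and without hashtag 2 the call was lost (adjusted p = 0.076). Osr1, a zinc finger factor of mesenchyme, was at 151, 163 and 137 CPM against 99.2, 113 and 108 CPM (0.50 ± 0.10, adjusted p = 7.88e-04), a call lost without hashtag 1 (adjusted p = 0.139). That of Ebf1 was lost without any 1 of the hashtags (adjusted p = 0.0633 to 0.476). Prrx1 was at 97.3, 127 and 114 CPM against 93.6, 84.6 and 86.4 CPM and was not called (0.33 ± 0.11, adjusted p = 0.150). Gata6 and Hand2, factors of the heart fields and neural crest, were not called either (-0.20 and -0.25). Dlx6 and Tfap2b were too low in the hashtag sums to be tested. Over all barcodes Dlx6 was at 9.04 CPM in members (exact Poisson interval 7.51 to 10.8) and 0.774 CPM in the other gate barcodes (0.514 to 1.12), and Tfap2b at 6.10 CPM (4.86 to 7.56) and 0.608 CPM (0.381 to 0.920). By hashtag, Dlx6 had 2, 12 and 1 UMIs in members and 3, 2 and 0 in the other gate barcodes, so hashtag 2 carried most of it. Tfap2b had 4, 4 and 5 UMIs in members and 0, 4 and 0 in the others. Over all barcodes it was at 12.0 CPM in members led by Rgs5, 2.10 CPM with Sfrp2 leading, and 0 with Lamc3 or Mia leading.

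Sfrp2 and Frzb, which the rule used, apart, none of the 4 secreted Wnt antagonists tested was called. Dkk3 was at 273, 272 and 276 CPM in members against 268, 262 and 237 CPM, and Wif1 at 138, 101 and 125 CPM against 121, 114 and 111 CPM. Sfrp1 was at 17.4, 26.1 and 2.98 CPM against 27.0, 18.9 and 12.3 CPM, with overlap. None of 3 Wnt ligands and Rspondins and none of 6 feedback target genes was called. Of 14 Wnt receptors, only Lgr6, a receptor for Rspondins, was higher (0.36 ± 0.10, adjusted p = 0.0353), and 16 of 20 alternatives ended that call, among them each hashtag left out (adjusted p = 0.058 to 0.286). Of 30 TGF-beta and BMP genes, Chrdl1, a secreted BMP antagonist, was higher, at 67.7, 47.3 and 32.8 CPM against 24.2, 22.7 and 15.7 CPM (1.25 ± 0.18, adjusted p = 1.90e-06). None of 6 Notch genes passed. Notch3, a receptor of arterial muscle and pericytes, was at 6.08, 11.2 and 9.93 CPM against 18.6, 16.0 and 19.6 CPM (adjusted p = 0.087).

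The contractile list had 4 genes lower and 1 higher among 27 tested, with a median log2 fold change of -0.12. The shares over all genes tested were 0.489% lower and 0.693% higher. Des, the muscle intermediate filament desmin, was at 45.2, 49.8 and 64.6 CPM in members against 124, 84.6 and 84.9 CPM (-0.90 ± 0.14, adjusted p = 1.48e-05, and 0.191 without hashtag 1). Sncg was at 164, 141 and 183 CPM against 299, 269 and 266 CPM (-0.77 ± 0.09, adjusted p = 1.18e-08). Over all barcodes it was at 107 CPM in members led by Rgs5, 213 CPM with Sfrp2 leading and 270 CPM with Mia leading. Tpm2, a tropomyosin, and Ppp1r14a, an inhibitor of myosin phosphatase, were lower by smaller amounts (-0.26 and -0.25), and without hashtag 1 both calls were lost (adjusted p = 0.366 and 0.462). Itga8, an integrin of smooth muscle, was higher (0.21 ± 0.06, adjusted p = 0.0457). Cnn1, Mylk and Lmod1 were not called, at -0.06, -0.12 and -0.07. Tnnt2 was at 124, 143 and 148 CPM against 230, 168 and 172 CPM and was lower (-0.48 ± 0.10, adjusted p = 0.0023, and 0.712 without hashtag 1). Acta2 and Tagln belong to the gate and get no test; their means were 12804 and 9535 CPM in members and 15015 and 11119 CPM in the others. With the composition scaled by library totals alone, calls over all genes split 83 higher and 26 lower in place of 61 and 43.

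Of 17 receptors for vasoactive ligands, Gucy1a1, Npy1r and Ramp1 were lower in members and 0 higher. The shares over all genes tested were 0.489% lower and 0.693% higher. Gucy1a1, a subunit of the nitric oxide receptor guanylate cyclase, was at 313, 285 and 347 CPM against 471, 437 and 452 CPM (-0.53 ± 0.07, adjusted p = 1.13e-06). The neuropeptide Y receptor Npy1r was at 262, 243 and 258 CPM against 332, 330 and 318 CPM (-0.36 ± 0.08, adjusted p = 0.0026), a call lost without hashtag 1 (adjusted p = 0.0839) or 2 (0.0555). That of Ramp1 was lost without any 1 of the hashtags (adjusted p = 0.152 to 0.265). In the family of Rgs5, 7 other RGS genes were tested and only Rgs4 was called. It was at 111, 89.6 and 99.3 CPM in members against 53.3, 53.2 and 74.5 CPM (0.74 ± 0.12, adjusted p = 2.79e-05, and 0.0973 without hashtag 1). Of 24 potassium and calcium channel genes only Abcc9, the sulphonylurea receptor subunit of vascular KATP channels, was higher (0.35 ± 0.09, adjusted p = 0.0195, and 0.608 without hashtag 1). Its pore partner Kcnj8 was at 18.2, 42.3 and 34.8 CPM against 20.7, 18.4 and 19.2 CPM and was not called (adjusted p = 0.169). Among secreted signals outside the lists, Bdnf was at 57.3, 57.2 and 67.6 CPM against 28.4, 32.4 and 31.9 CPM (0.98 ± 0.16, adjusted p = 1.91e-05). Vegfd (1.34) and Mdk (1.22), growth factors, were also higher, and 11 and 10 of 20 alternatives ended those calls, hashtags 1 and 2 left out among them (adjusted p = 0.789 and 0.108 for Vegfd, 0.0573 and 0.739 for Mdk).

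Rgs5 is also a pericyte gene, and 82 barcodes with at least 2 UMIs of Higd1b and Cox4i2 together served as a level for it. They held 2559 CPM of Rgs5 against 1207 CPM in members and 101 CPM in the other gate barcodes. The other pericyte genes differed in how close members came to that class. Notch3 was at 11.5 CPM in members, 14.8 in the other gate barcodes and 352 in the pericyte-marker barcodes, Ndufa4l2 at 1.62, 1.85 and 270 CPM, and Vtn at 0.441, 0.276 and 71.5 CPM. Pdgfrb, a growth factor receptor of mural cells, was at 105, 93.4 and 254 CPM, and Abcc9 at 217, 165 and 242 CPM. These genes were chosen after their values were seen, and the whole list, which leaves out Rgs5, took 0.203%, 0.217% and 0.435% of UMIs in the same order. The list holds Higd1b and Cox4i2, which chose the pericyte-marker barcodes and were barred from the gate. Part of that gap was thus set by the rules. The pericyte-marker barcodes had a median of 1.70% of Acta2, Tagln and Myh11 transcripts, and 26.8% of them passed the threshold on the marker genes. How many of them are pericytes was not tested. Of the 20 pericyte markers, Higd1b and Cox4i2 were at 0 in members by the rule and Atp13a5 was also at 0. The list summed to 1967 to 2073 CPM in members and 2156 to 2234 CPM in the other gate barcodes. Of 15 tested, Abcc9 was higher and Ebf1, Aspn and Gm13889 lower.

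Fibroblast markers split 2 higher (Mfap5 and Col1a1) and 2 lower (Igfbp6 and Pi16) among 23 tested, with a median of -0.11. The shares over all genes tested were 0.693% higher and 0.489% lower. The call of Igfbp6 was lost without hashtag 2 or 3 (adjusted p = 0.183 and 0.0714), that of Pi16 without hashtag 1 or 2 (0.0962 and 0.599) and that of Col1a1 without hashtag 2 or 3 (0.523 and 0.355). At least 2 of Pdgfra, Pi16, Clec3b, Lum and Serpinf1 with 4 or more UMIs in all were found in 76 members (4.51%) and 202 other gate barcodes (3.95%). Endothelial markers summed to 353 to 447 CPM in members and 518 to 678 CPM in the others, and Fabp4, a lipid carrier of capillary endothelium and fat, was the 1 call of 8 (-0.80 ± 0.08, adjusted p = 1.99e-10). None of 4 leukocyte markers was called, and of 3 Schwann cell markers Ncam1, an adhesion molecule, was higher (0.50 ± 0.07, adjusted p = 3.59e-07). Its level was 630, 633 and 698 CPM in members against 470, 479 and 442 CPM. Of 18 genes induced by tissue dissociation, Atf3, Fos, Hspb1 and Hspa1b were lower and 0 higher. All 4 calls were lost without hashtag 3 (adjusted p = 0.148, 0.281, 0.479 and 0.328). The list summed to 2429 to 2987 CPM in members and 2848 to 3058 CPM in the others. In hashtag 1 members had the higher sum, 2987 against 2943 CPM. Over all barcodes the list took 0.2997% of UMIs in members and 0.2961% in the other gate barcodes. The part of these genes in the differences was not tested. No call was made among 1 mesothelial, 1 adipocyte, 2 cardiomyocyte, 2 erythroid and 2 cell cycle genes tested, and of 4 genes of the main muscle clusters Mgp was higher and Tnnt2 lower.

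Against the fibroblast-marker barcodes, members had 1624 genes higher (18.5% of 8795 tested) and 1661 lower (18.9%), 37.4% in all. Hashtag values did not overlap for 45.6% of the genes tested, and 43.8% had an unadjusted p under 0.05. All 27 contractile genes tested were higher in members, with a median log2 fold change of 2.73. All 18 fibroblast markers tested were lower, with a median of -4.65. The classes were chosen by muscle and fibroblast genes, so the direction of both lists was largely set by the gates and is a description. Of 13 interstitial collagens 12 were lower, and elastic fibre genes split 8 higher and 11 lower among 23. Several genes that set members apart within the gate were lower in them than in fibroblast-marker barcodes. Adamtsl1 differed by -1.37 ± 0.29 (adjusted p = 9.21e-05), Chrdl1 by -0.97 ± 0.19, Mfap5 by -2.24 ± 0.08, Tshz2 by -3.47 ± 0.16 and Lama2 by -2.51 ± 0.17. These values are for members as a whole. At 2000 UMIs per barcode, Adamtsl1 was in 15.0% of members with 20 or more marker UMIs and 10.1% of fibroblast-marker barcodes. The shares were 16.5% and 14.5% for Chrdl1, and 58.0% and 79.6% for Mfap5. Others were higher in members than in both, such as Bdnf (2.75 ± 0.33), Rgs4 (3.50 ± 0.30), Ncam1 (3.20 ± 0.13), Ltbp2 (0.86 ± 0.23) and Fbln5 (0.40 ± 0.08). Smoc1, Fn1 and Dlx5 were not called in this comparison (adjusted p = 0.166, 0.434 and 0.941). The 2 comparisons share the members' sums and are given side by side.

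Across 6715 gate barcodes with at least 2000 UMIs, 9006 genes were ranked by the Pearson correlation of their level with the summed log level of the 6 markers. Adamtsl1 came first (r = 0.42), followed by Mfap5 (0.34), Smoc1 (0.34), Fbln5 (0.34), Ncam1 (0.30), Dlx6 (0.30), Negr1 (0.29), Tshz2 (0.29), Vcan (0.28) and Mdga2 (0.27). The barcodes share libraries and differ in depth, and no test is attached. Genes entered this ranking only if found in at least 5% of members, and the 6 markers also chose the members. The order is thus a description tied to the rule. Tfap2b and Prss12, found in 3.32% and 4.15% of members, could not enter. At the other end Crip1, a LIM protein of smooth muscle, had r = -0.33 and Postn r = -0.25.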

How the data were processed

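Per the file headers, the authors' deposited table gives raw UMI counts made with Cell Ranger 6.0.1. The submitters' processing notes also list mm10 and Seurat 4.0.5, and the sources used here name no annotation. It has 32285 genes and 3 hashtags; 4 gene expression and 4 hashtag libraries cannot be told apart by barcode. Depths are given in the report.

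Hashtags were called with HTODemux (Seurat 5.3.0, quantile 0.99). Counts were summed per hashtag and class (members, other gate barcodes, fibroblast-marker barcodes) and tested with edgeR 4.0.16 (glmQLFit, TMM, filterByExpr, hashtag as a block, Benjamini-Hochberg over all genes). The code was also run on simulated counts with planted fold changes, drawn independently with the spread of the same fit. That simulation had no hashtag effect and no choice of members by their genes, so it says nothing on the hashtag calls or the rule. The block follows the design, as classes with the same hashtag come from the same animals, although the deviations of members and other gate barcodes of the same hashtag correlated at only 0.04, -0.00 and -0.01. Fibroblast-marker barcodes passed the cell filter with under 1% of Acta2, Tagln and Myh11 and at least 4 UMIs of at least 2 of 5 fibroblast genes. Clustering used scanpy 1.11.5 (2000 variable genes, 30 components, 15 neighbours, Leiden resolution 0.5). Intervals cover counting error only. Levels by hashtag are CPM with TMM scaling; levels over all barcodes and summed lists are CPM of the total.

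The members, markers and gene lists were chosen with earlier results of these data known. Genes were named if they were among the 15 largest calls in a direction (same direction in 3 of 3 hashtags, at least 10 UMIs in the higher class, without Gm, Rik, ribosomal protein and mitochondrial names) or among up to 4 called members of a list, with uncalled members as counterparts. The other calls of a list, Dlx6 and Tfap2b were chosen after their values were seen.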

Additional observations from a re-analysis of the deposited data

How the results depend on the processing

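Counts of genes called higher and lower in members against other gate barcodes (61 and 43) moved with the setting. Over the settings fixed with the design, library totals alone gave 26 lower, DESeq2 13 and 5, no low-count filter 76 lower, a fit on these classes alone 106 and 101, at most 10% mitochondrial UMIs 15 and 8, at least 3% muscle transcripts 10 and 12, the ratio caller 6 and 2, and HTODemux on a narrower filter 24 and 14. Leaving out a hashtag gave 28 to 56 higher and 16 to 32 lower. Without the replicate block, which pairs classes of an animal, 55 and 31 were called. The settings chosen after seeing the data gave 69 lower for members with at least 10 marker UMIs, 6 and 15 for those with 4 or 5, and 35 and 25 without the Adamtsl1-led cluster. Fewer barcodes or genes enter several of these settings; otherwise the cause was not tested. Of 1032 values of named genes under these settings, 648 kept their call, 372 lost it and 12 reversed. With at least 3% muscle transcripts Adamtsl1 was at -0.017, Igfbp6 at 0.29 and Mgp at -0.048. With the ratio caller Igfbp6 was at 0.19, Pi16 at 0.83, Lgr6 at -0.00079 and Ebf1 at 0.049. The narrower filter put Cdh6 at 0.030, and barcodes without other-cell UMIs put Pi16 at 0.0044. Members with 4 or 5 marker UMIs had Adamtsl1 at -0.00596, Vegfd at -0.68 and Tshz2 at -1.25.

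Members were 10.7% of the gate under a stricter rule, 38.02% under a looser one, 27.1% at most 10% mitochondrial UMIs and 16.4% at least 3% muscle transcripts. Thinning to 4000 UMIs in place of 2000 put Adamtsl1 in 7.45% of members. The contrast with fibroblast-marker barcodes gave 1633 and 1676 calls without the replicate block.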

Other observations

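Genes named by the rule but not described above included Gria3, a glutamate receptor subunit, at 13.0, 17.4 and 18.9 CPM in members against 5.26, 6.77 and 8.45 CPM in the other gate barcodes (log2 fold change 1.25 ± 0.32, edgeR adjusted p = 0.0229, and 0.157 to 0.237 without 1 hashtag). Crispld1, a secreted protein, was at 41.7, 59.7 and 48.7 CPM against 26.7, 26.1 and 24.96 CPM (0.92 ± 0.17, adjusted p = 3.08e-04). The X-linked gene Tceal6 was at 73.8, 52.2 and 65.6 CPM against 40.0, 33.8 and 33.0 CPM (0.85 ± 0.15, adjusted p = 7.41e-05). The members differed from the other gate barcodes in all 3 hashtags in each of these genes.

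Among genes lower in members, Igfbp5, a binding protein of insulin-like growth factors, was at 96.4, 53.5 and 151 CPM against 155, 160 and 240 CPM (-0.85 ± 0.12, adjusted p = 1.59e-06). The homeobox gene Six4 was at 6.08, 2.49 and 6.95 CPM against 15.1, 13.5 and 12.7 CPM (-1.35 ± 0.37, adjusted p = 0.0456, and 0.074 to 0.38 without 1 hashtag). The cadherin gene Cdh6, Dgkb, Smarcd3 and Ifi27l2a were lower by 0.61 to 0.64 on the log2 scale. The call of Dgkb was lost without any 1 of the hashtags (edgeR adjusted p = 0.0647 to 0.495), that of Cdh6 without hashtag 1 or 3 (0.241 and 0.294) and that of Ifi27l2a without hashtag 3 (0.145). Lmo7, with 1 UMI in members and 36 in the others, and Ildr2, with 3 and 48, rest on counts too low for a stable fold.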
